A study of Polypedilum vanderplanki with 33 samples.

Results

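Divergent gene pairs are neighbouring genes on opposite strands whose starts face each other across a short gap. In the sleeping chironomid Polypedilum vanderplanki, 1757 such pairs were found among the deposited gene models. A pair was a gene on the minus strand followed along the scaffold by a gene on the plus strand, with no overlap, a gap under 1000 bases and no other gene start between them, and with 2 to 11 exons in the longest transcript of each gene. The pairs held 3514 genes, which was 18.6% of the 18896 genes that met the strand and exon limits, out of 28415 gene models. No gene belonged to more than 1 pair. The minus-strand partner is called the left gene and the plus-strand partner the right gene throughout.

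The larva of this midge survives the loss of almost all body water in a state called anhydrobiosis and resumes development when water returns. Whole larvae of highly inbred lines were dried and rewetted, and polyadenylated RNA was sequenced at 10 times of dehydration and 7 times of rehydration in 32 libraries used here, 22 of batch 1 and 10 of batch 2 as the labels name them. Each comparison below sets a group of larvae dried for 24, 40 or 48 h, or rewetted for 3 h, against larvae dried for 0 h or 24 h or rewetted for 0 h. All groups share the strain, the rearing and the RNA preparation, no gene was altered, and larval age was not given. Groups at 0 and 48 h of dehydration and at 0 and 3 h of rehydration had 2 libraries, and those at 24 and 40 h had 3. A single batch 2 library stood at each of 32 and 36 h of dehydration. At 1 h of rehydration, and at each time from 6 h of rehydration on, a single batch 1 library was used. A further library, from batch 2 at 1 h of rehydration, was left out by the rule that defines the pairs.

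Transcription from a promoter can start in both directions, and genes arranged head to head can share regulatory sequence, nucleosome-free DNA and bound factors. In many animals such pairs include genes with housekeeping roles, and their partners can be expressed together or independently. Neighbouring genes of any orientation can also share open chromatin or descend from a local duplication. The question asked of the pairs here was how far the partners rose and fell together during drying and rewetting.

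Total counts per library lay between 15015674 and 34179203. Both partners had at least 1 count in 1154 to 1562 pairs in each of the 32 libraries, and in 591 pairs in the omitted library. The factors of the trimmed mean scaling (TMM), which adjust counts scaled to library size (CPM) for composition, lay between 0.543 and 0.869 in the libraries of 40 and 48 h of dehydration and of 0 and 1 h of rehydration and between 0.987 and 1.55 in all other libraries, so this measure of library composition moves with the dry state, and its part in the results was not tested. Batch 2 held no library at 0 h or 1 h of dehydration. A batch 2 library titled as 40 h carries a duration of 48 h in its label and was counted at 40 h. Whether replicates were separate cultures or animals is not stated in the labels. The p-values therefore speak of the spread among these libraries alone, and that spread may be technical. In whole larvae, fewer cells of a type and less RNA per cell cannot be told apart. The files pair gene IDs with no names, so the labelled tissue could not be checked against marker genes, no function is given for any partner, and pairs are named by scaffold.

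The pairs lay on 494 scaffolds, of which 250 held a single pair and scaffold 1299 held the most, 37. The median gap was 237 bases, with quartiles at 92 and 432 bases. Gaps under 100 bases separated 469 pairs, and gaps under 300 bases separated 1090. The median number of exons was 3 for both the left and the right genes, and the median exonic length was 1401 and 1491 bases. In 866 pairs (49.29%) at least 1 partner overlapped another gene model outside the pair, where reads cannot be assigned with certainty because the library kit does not mark strand. Of the 29 pairs described singly below, 17 have such a partner. The 12 that have none are those on scaffolds 4145, 580, 1160, 32338, 1006, 499, 151, 3918, 3188, 1357 and 1265 and the second pair of scaffold 2391. Whether partners are near-identical copies of each other, which would let reads move between them, could not be checked without sequence.

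Both partners passed the filter on low counts (1 CPM or more in 2 or more libraries) in 1439 pairs, 1 partner passed in 243 pairs and neither in 75, of which 8 had no count in either gene. The 3121 member genes that passed were part of 17789 tested genes. Among tested pairs, the widest gap inside the limit was 994 bases, on scaffold 1449, with a correlation between partners of -0.02 over the 32 libraries. The narrowest gap outside it was 1003 bases, on scaffold 3098, with a correlation of 0.54.

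Partners followed each other weakly over the time course. The Pearson correlation of log2 CPM between partners over 32 libraries had a median of 0.201 over the 1439 pairs, with quartiles at -0.123 and 0.46. It was above 0.5 in 318 pairs (22.1%) and below -0.5 in 72 pairs (5.0%). For scale, the median over all 158215366 pairs of tested genes was 0.019, with 7.56% above 0.5, and for genes of the same exon range that lie 10 places apart on a scaffold it was 0.034, with 10.3% above 0.5. Convergent neighbours under 1000 bases apart, whose ends face each other, had a median of 0.103 over 983 pairs and 14.9% above 0.5. Tandem neighbours under 1000 bases apart, on the same strand, had a median of 0.219 over 2378 pairs and 23.8% above 0.5. Divergent pairs 1000 to 9999 bases apart had a median of 0.172 over 372 pairs and 17.2% above 0.5. Below -0.5 lay 6.19% of all pairs of tested genes, 6.9% of pairs 10 places apart, 6.21% of convergent and 4.12% of tandem pairs. Of divergent pairs 1000 to 9999 bases apart, 2.69% lay there. All these values are descriptions over pairs that share the same libraries. The differences between orientations were not tested.

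**Figure D1:**
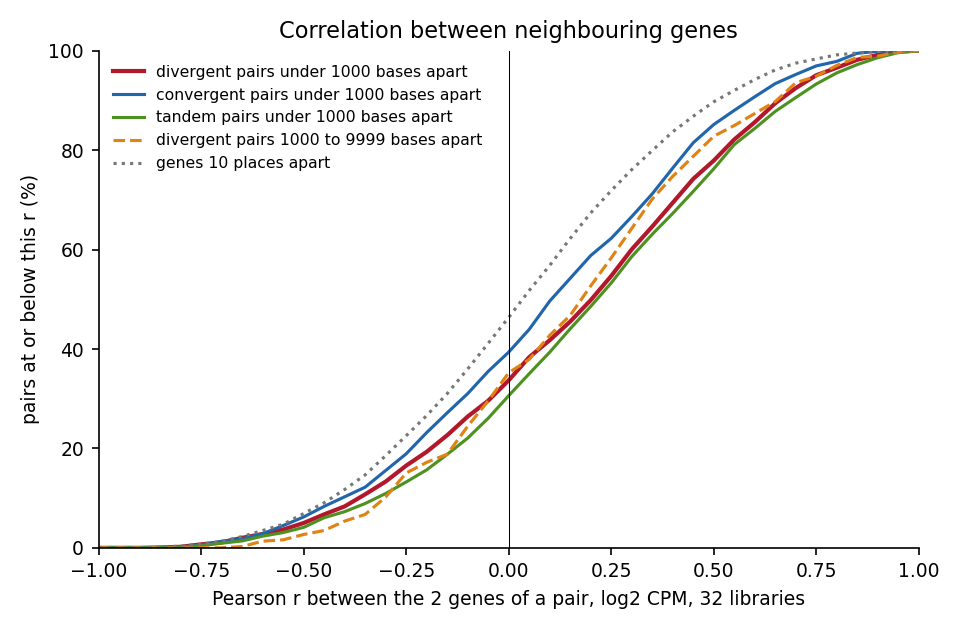
Cumulative share of pairs (vertical axis, percent) by the Pearson correlation of log2 CPM between their 2 genes over 32 libraries (horizontal axis), with a line for each kind of neighbour and a dotted line for genes 10 places apart. The line of divergent pairs under 1000 bases apart (median 0.201) runs beside that of tandem pairs (median 0.219) and to the right of those of convergent pairs (0.103) and genes 10 places apart (0.034).

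The length of the gap was almost unrelated to the correlation. Spearman's rho across the 1439 pairs between gap and correlation was -0.028. The median correlation was 0.118 for the 124 pairs with gaps of 0 to 49 bases and 0.262 for the 293 with gaps of 50 to 99 bases. It was 0.177 and 0.154 for the next ranges of 100 bases each, 0.213 for the 280 pairs with gaps of 300 to 499 bases and 0.193 for the 210 with gaps of 500 to 999 bases. No ordered trend ran through the 6 ranges. Pairs in which a partner overlapped another gene model outside the pair had a median of 0.211 (738 pairs), and the other pairs 0.194 (701 pairs).

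**Figure D2:**
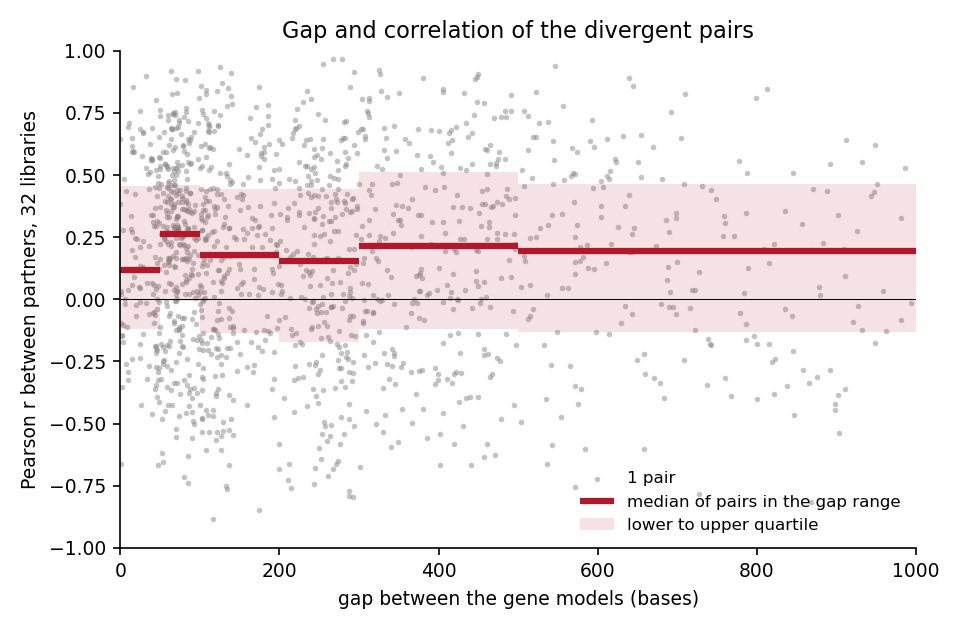
Correlation between partners over 32 libraries (vertical axis) against the gap in bases (horizontal axis), 1 grey point per divergent pair with both genes tested. Red lines give the median and red bands the quartiles in 6 gap ranges, whose medians lie between 0.118 and 0.262.

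The median correlation showed no steady relation to expression level, while the shares of strong correlations of either sign were higher in pairs of abundant genes. Spearman's rho between the smaller mean CPM of the partners and the correlation was 0.047 across all 1439 pairs. The 226 pairs in which both partners averaged at least 20 CPM had a median correlation of 0.337, and 36.3% of them were above 0.5. The median was 0.162 for the 520 pairs whose weaker partner averaged 5 to 20 CPM, 0.22 for the 483 at 1 to 5 CPM and 0.169 for the 210 under 1 CPM, with 22.9%, 19.0% and 11.9% above 0.5. Below -0.5 lay 8.85% of the pairs in the highest range and 7.5%, 2.28% and 0.952% in the others.

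The correlation was lower within each part of the time course than over the whole. Within dehydration from 0 to 32 h (17 libraries) the median was 0.072, over the driest stretch, 36 h of dehydration through 1 h of rehydration (9 libraries), 0.13, and from 3 to 48 h of rehydration (6 libraries) 0.145. Genes 10 places apart had 0.01, 0.063 and 0.019 over the same libraries. Convergent neighbours under 1000 bases apart had 0.059, 0.102 and 0.053, and tandem neighbours 0.095, 0.136 and 0.236. Over the means of the 17 times the median for divergent pairs was 0.233, and over the deviations of replicates after time and batch were removed it was 0.12. Tandem pairs had 0.261 and 0.115 by these measures, and convergent pairs 0.11 and 0.09. For divergent pairs the median was 0.194 within batch 1 and 0.234 within batch 2, and 0.252 with the omitted library added. With 6 to 10 libraries a single correlation is imprecise.

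Partners of a pair stood at different levels. Taking CPM per kilobase of exon, the median absolute log2 ratio between partners was 1.99, and 455 pairs (31.6%) differed by more than 8-fold. The same ratio was 2.25 for convergent and 2.12 for tandem neighbours under 1000 bases apart. Of these neighbours 38.9% and 35.7% differed by more than 8-fold, as did 36.6% of divergent pairs 1000 to 9999 bases apart. The median level of the member genes was 7.33 CPM per kilobase, against 3.41 for all tested genes, 6.12 for convergent and 5.6 for tandem neighbours. Member genes also varied less over time, with a median standard deviation of 0.63 for the log2 CPM of the time means, against 0.92 for all tested genes, 0.71 for convergent and 0.80 for tandem neighbours. These level differences were not tested.

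The stretch of the time course with a gene's highest time mean was the same for both partners in 625 of the 1439 pairs (43.4%). Of these, 67 pairs peaked within 0 to 32 h of dehydration, 224 between 36 h of dehydration and 1 h of rehydration, and 334 within 3 to 48 h of rehydration. By gene, 19.6%, 34.1% and 46.2% of the members peaked in these stretches, beside 21.5%, 35.5% and 43.1% of all tested genes. How much of the sharing these proportions alone would give was not tested. Tandem neighbours shared the stretch in 47.7% of pairs and convergent neighbours in 41.9%.

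At 24 h of drying few member genes had changed, and both partners rarely passed the test together. Of 2878 genes in tested pairs, 151 (5.25%) rose and 54 (1.88%) fell against 0 h (edgeR's quasi-likelihood test, Benjamini-Hochberg adjusted p under 0.05 over all tested genes), against 4.59% up and 2.93% down among all 17789 tested genes. In convergent pairs under 1000 bases apart 6.26% of genes rose and 2.7% fell, and in tandem pairs 6.12% and 3.17%. The member counts fell to 59 rises and 19 falls when 0 h replicate 1 was left out and to 141 and 45 when 0 h replicate 2 was. The fits that omit 24 h replicates 1, 2 and 3 gave 116 with 33, 109 with 27, and 97 with 34. Both partners rose in 9 pairs and fell in 2, and in 3 pairs they moved in opposite directions, so that 78.6% of 14 pairs with both partners called, and 0.764% of all pairs, moved the same way. These shares were 84.6% and 1.12% for convergent, 91.8% and 1.89% for tandem and 100% and 2.96% for wider divergent pairs, and 57.6% and 0.477% for pairs 10 places apart. In 177 pairs 1 partner passed, and in 1248 neither did. The median log2 fold change of the member genes was 0.04, beside 0.01 for all tested genes. The split between rises and falls depends on the scaling: 73.7% of the member calls were rises with TMM, and 62.5% with RLE scaling, which gave 140 rises and 84 falls.

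The pair on scaffold 2391 at 46676 to 52914 (gap 185 bases) was among the 3 with the largest joint rise at 24 h, ranked here and below by the smaller of the partners' fold changes. Its left gene had 1.52 and 1.38 CPM at 0 h and 18.2, 19.8 and 16.6 CPM at 24 h. Its right gene had 2221 and 1265 CPM at 0 h and 3928, 4592 and 4396 CPM at 24 h. Every 24 h library lay above both 0 h libraries for both partners, with log2 fold changes of 3.63 ± 0.40 (SE, adjusted p = 6.28e-06) and 1.38 ± 0.28 (SE, adjusted p = 0.00277, edgeR). The left gene rose by more than the right: the log2 left to right ratio changed by 2.19 ± 0.44 (SE, edgeR ratio test, adjusted p = 0.0117). The right gene's call was lost without 0 h replicate 2.

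On scaffold 4145 (97159 to 101618, gap 933 bases) the left gene rose, with 33.2 ± 12.9 CPM (SD, n = 2) at 0 h against 109 ± 9.44 CPM (SD, n = 3) at 24 h, and the right gene from 3.05 ± 0.276 to 8.36 ± 1.44 CPM. The call of the right gene was kept without 24 h replicate 2 and lost without 0 h replicate 1, 0 h replicate 2, 24 h replicate 1 or 24 h replicate 3. On scaffold 1028 (337132 to 342856, gap 174 bases) the left gene had 6.04 and 13.3 CPM at 0 h and 41.8, 49.2 and 30.1 CPM at 24 h. The right gene had 19.1 and 119.5 CPM at 0 h, replicates that differ widely, and 367.9, 430.7 and 412.2 CPM at 24 h. No 24 h library overlapped the 0 h libraries for either partner. The left gene's call was lost without 0 h replicate 1 or 24 h replicate 1, and the right gene's in the fits that omit 0 h replicate 1, 24 h replicate 2 or 24 h replicate 3.

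The 2 pairs that fell together at 24 h differed in what followed. On scaffold 580 (575 to 3516, gap 267 bases) the left gene had 1329 and 1228 CPM at 0 h, 782.2, 785.6 and 845.5 CPM at 24 h, and 1578 and 1329 CPM at 48 h. The right gene had 763.2 and 674.1 CPM at 0 h, 445.3, 448.3 and 447.7 CPM at 24 h, and 813.3 and 789.6 CPM at 48 h. Both partners were lower in every 24 h library than in either 0 h library and back at or above that level at 48 h. At 24 h the left gene's call was lost when 0 h replicate 1, 24 h replicate 1 or 24 h replicate 2 was left out, and the right gene's when 0 h replicate 1 was. On scaffold 121 (19178 to 23038, gap 244 bases) the left gene went from 43.1 ± 7.6 CPM (SD, n = 2) in undried larvae to 18.4 ± 2.9 CPM (SD, n = 3) after 24 h, and by 48 h to 6.95 ± 0.454 CPM (SD, n = 2). The right gene went from 60.7 ± 10.1 to 32.5 ± 4.04 CPM and was at 30.6 ± 2.56 CPM at 48 h, and its call at 24 h was lost whichever of the 5 libraries was left out. The left gene's call was lost in the fits that omit 0 h replicate 1, 24 h replicate 2 or 24 h replicate 3.

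These counts at 24 h rest on single libraries. Leaving out 1 of the 5 libraries left 2 to 5 pairs called together in place of 11: 2 without 0 h replicate 1, 5 without 0 h replicate 2, and 4, 4 and 5 without 24 h replicates 1, 2 and 3. Batch 1 alone gave 2 such pairs, and the fit that includes the omitted library gave 1. The fit of the compared groups alone gave 0, with 27 at an unadjusted p under 0.05 (edgeR), and DESeq2 on all groups gave 13. Of the joint rises and falls described for 24 h, that fit kept the calls of the left genes on scaffolds 4145 and 2391 alone.

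Late in drying many more pairs moved. Between 24 h and 40 h, 370 member genes (12.9%) rose and 376 (13.1%) fell, against 10.2% and 8.76% of all tested genes. In convergent pairs under 1000 bases apart 249 of 1966 genes (12.7%) rose and 241 fell. In tandem pairs 10.7% of genes rose and 10.7% fell. With upper quartile scaling the rises of member genes numbered 432 and their falls 342. Falls numbered 250 without 24 h replicate 1, 238 without 24 h replicate 3 and 237 when 40 h replicate 1 was omitted. Over the 6 fits that leave out 1 library, falls ranged from 237 to 516. Both partners rose in 49 pairs and fell in 38, and 23 pairs moved in opposite directions, so that 79.1% of the 110 pairs with both partners called moved the same way. That share was 92.3% of 26 divergent pairs 1000 to 9999 bases apart, 56.9% of 51 convergent and 70.9% of 134 tandem pairs, and 54.3% of 315 pairs 10 places apart. The differences between these shares were not tested. Without 24 h replicate 1, 2 or 3 the pairs called together numbered 50, 57 and 46 in place of 87, and without 40 h replicate 1 or 3 they numbered 53 and 55. They rose to 104 without 40 h replicate 2, the batch 2 library whose label gives a duration of 48 h. Batch 1 alone gave 74, and with the omitted library included 3 pairs were called together. The median log2 fold change was -0.16 for the member genes and -0.07 for all tested genes.

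At 48 h against 0 h of dehydration, 479 member genes (16.6%) rose and 670 (23.3%) fell, beside 15.1% and 18.2% of all tested genes. In convergent pairs under 1000 bases apart 17.6% of genes rose and 21.8% fell, and in tandem pairs 15.9% and 22.1%. The excess of falls among member genes depended on the libraries and the scaling. It shrank to 556 rises and 603 falls with upper quartile scaling and to 465 and 469 with the batch 2 library titled 40 h counted at 48 h. It turned to 461 rises and 455 falls without 48 h replicate 2, 398 and 389 in batch 1 alone, 231 and 210 with the omitted library, and 102 and 74 in the fit of the compared groups alone. Without 48 h replicate 1 there were 341 rises and 748 falls. Both partners rose in 76 pairs and fell in 104, and in 61 pairs 1 rose and the other fell. In 667 pairs 1 partner passed and in 531 neither. Of the 241 pairs with both partners called, 74.7% moved the same way, beside 74.5% of 47 divergent pairs 1000 to 9999 bases apart, 64.5% of 155 convergent, 74.0% of 411 tandem and 54.8% of 967 pairs 10 places apart. The median log2 fold change was -0.35 for the member genes and -0.28 for all tested genes. Without 0 h replicate 1 the pairs called together numbered 115 in place of 180, and those called in opposite directions 37 in place of 61. Without 48 h replicate 2, the library with the fewest detected pairs of the 32, 110 pairs were called together. Batch 1 alone, with a single 48 h library, gave 80 and 34, and with the omitted library included the counts were 39 and 8. The fit of the compared groups alone gave 5 and 2. Upper quartile scaling moved the median of all tested genes by 0.15 on the log2 scale at 48 h, to -0.13. At 3 h of rehydration that median moved by -0.18, to -0.10. The fold changes and calls reported were made with TMM scaling and were not centred on the median of all tested genes, so they move with the scaling.

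**Figure D3:**
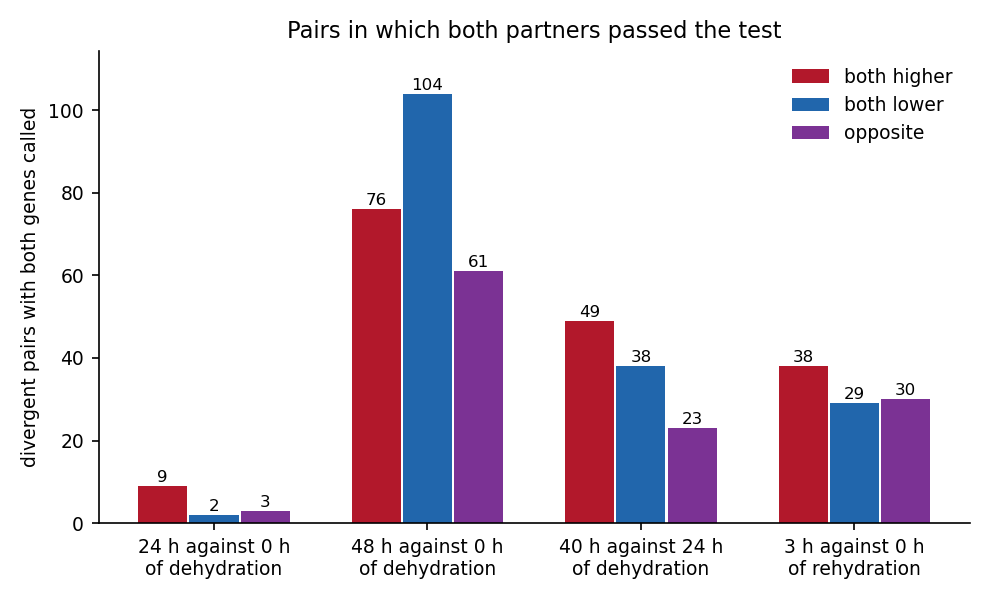
Number of divergent pairs in which both partners passed the test (vertical axis), for 4 comparisons (horizontal axis), with bars for pairs in which both genes were higher, both lower or opposite. The bars are highest at 48 h against 0 h of dehydration, with 76, 104 and 61 pairs.

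By the smaller fold change of the partners, the largest joint rise at 48 h was on scaffold 638 (7153 to 11500, gap 107 bases), in genes PvG027809 and PvG027806, both of which overlap another gene model outside the pair. The left gene, PvG027809, had 0.794 and 1.35 CPM at 0 h and 25.4 and 19.9 CPM at 48 h. The right gene, PvG027806, had 2.48 and 3.00 CPM at 0 h and 24.5 and 29.1 CPM at 48 h. Neither partner's groups overlapped, with log2 fold changes of 4.30 ± 0.92 (SE, adjusted p = 0.00124) and 3.32 ± 0.56 (SE, adjusted p = 6.71e-05, edgeR). Both were still low at 32 h (2.91 and 3.26 CPM) and high in the single 36 h library (12.0 and 32.0 CPM). Through rewetting the left gene went from 34.6 and 19.6 CPM at 0 h to 27.2 and 14.4 CPM at 3 h and 1.68 CPM at 48 h, and the right gene from 22.4 and 15.5 CPM to 12.2 and 9.85 CPM and 1.28 CPM.

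On scaffold 1028 the pair already described went on rising, to 109.8 and 92.3 CPM at 48 h for the left gene and 2077 and 1679 CPM for the right. The right gene rose by more: the log2 left to right ratio changed by -1.94 ± 0.38 (SE, adjusted p = 0.000976, edgeR ratio test). The right gene's call at 48 h was lost in the fit of the compared groups alone. On scaffold 251 (569 to 6895, gap 546 bases) the left gene had 3.69 and 7.93 CPM at 0 h and 25.8 and 37.6 CPM at 48 h, and the right gene 1.28 and 2.22 CPM and 10.89 and 13.97 CPM. The ratio between its partners changed by -0.19 ± 0.57 (SE, adjusted p = 0.848, edgeR ratio test). Both partners' calls at 48 h were lost in the fit of the compared groups alone.

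By the same measure, the largest joint fall at 48 h was on scaffold 77834 (1316555 to 1319255, gap 170 bases), in genes PvG030267 and PvG030134, which also overlap gene models outside the pair. The left gene, PvG030267, had 145 and 281 counts at 0 h (5.003 and 8.441 CPM) and 14 and 0 counts at 48 h. The right gene, PvG030134, had 43.2 and 42.8 CPM at 0 h and 5.07 and 2.23 CPM at 48 h. Both partners were lower in each 48 h library than in any 0 h library, with a log2 fold change of -3.48 ± 0.43 (SE, adjusted p = 1.33e-06, edgeR) for the right gene. The left gene passed at an adjusted p of 0.00888 (edgeR). Its call was lost without 48 h replicate 2, with the omitted library and in the fit of the compared groups alone. In the single library at 48 h of rehydration the left gene was at 6.52 CPM and the right gene at 19.9 CPM.

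On scaffold 1160 (76419 to 78859, gap 432 bases) the left gene fell from 13.2 ± 0.972 CPM to 1.68 ± 0.777 CPM (SD, n = 2) and the right gene from 102 ± 22.7 CPM to 10.4 ± 3.85 CPM. On scaffold 32338 (3475 to 6981, gap 380 bases) the left gene fell from 78.3 ± 20 CPM to 9.64 ± 2.6 CPM (SD, n = 2) and the right gene from 6.34 ± 0.00726 CPM to 0.825 ± 0.586 CPM. In both pairs each partner's 48 h libraries lay below its 0 h libraries. The call of the right gene on scaffold 32338 was lost when the batch 2 library titled 40 h was counted at 48 h and in the fit of the compared groups alone.

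Across all 1439 pairs the fold changes of partners at 48 h were only loosely related, with a Pearson r across pairs of 0.201 and a median absolute difference of 1.3 on the log2 scale. The same r was 0.061 at 24 h, 0.213 between 24 and 40 h, and 0.235 at 3 h of rehydration. For tandem pairs it was 0.292 at 24 h, 0.305 at 48 h, 0.189 between 24 and 40 h, and 0.225 at 3 h, and for convergent pairs 0.175, 0.193, 0.136 and 0.147. For divergent pairs 1000 to 9999 bases apart it was 0.213, 0.259, 0.15 and 0.157. The order of the classes by Pearson r thus changed between comparisons. By Spearman's rho, which extreme fold changes move less, tandem pairs were highest in every comparison. Their rho was 0.201 at 24 h, 0.306 at 48 h, 0.248 between 24 and 40 h, and 0.265 at 3 h of rehydration. For divergent pairs under 1000 bases apart it was 0.106, 0.231, 0.232 and 0.215. The differences between classes were not tested.

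**Figure D4:**
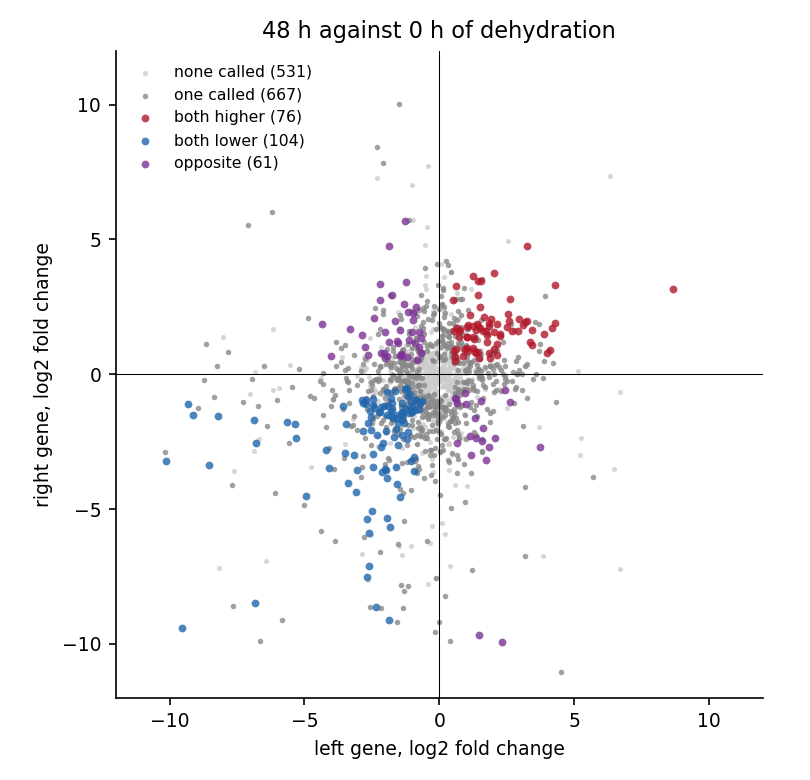
Log2 fold change of the right gene (vertical axis) against that of the left gene (horizontal axis) at 48 h against 0 h of dehydration, 1 point per divergent pair with both genes tested. Coloured points are the 76 pairs with both genes higher, the 104 with both lower and the 61 with opposite changes; grey points are pairs with 1 gene or no gene called.

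Some pairs separated during drying. On scaffold 499 (183654 to 187741, gap 441 bases) the left gene had 10.6 and 8.74 CPM at 0 h and 4.10 and 1.29 CPM at 48 h, and the right gene 13.66 and 16.97 CPM and 448.8 and 330.3 CPM. Both 48 h libraries lay above both 0 h libraries for the right gene and below them for the left. The log2 left to right ratio changed by -6.83 ± 0.62 (SE, adjusted p = 1.09e-06, edgeR ratio test). The left gene's call was lost without 48 h replicate 2, in batch 1 alone, with the omitted library and when the batch 2 library titled 40 h was counted at 48 h. It was also lost in the fit of the compared groups alone.

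On scaffold 210 (154477 to 163550, gap 728 bases) the left gene went from 891.3 and 1222 CPM at 0 h to 497 and 332.5 CPM at 48 h while the right gene went from 2.97 and 2.97 CPM to 150.7 and 141.3 CPM. The partners had already separated at 24 h, when the left gene had 348.1, 346.1 and 366.9 CPM and the right gene 62.9, 48.4 and 44.8 CPM. The ratio changed by -5.65 ± 0.73 at 24 h (SE, adjusted p = 0.000382) and by -6.94 ± 0.81 at 48 h (SE, adjusted p = 1.19e-05, edgeR ratio test). With the omitted library the left gene's calls at 24 h and 48 h were lost. Its call at 48 h was also lost in the fit of the compared groups alone.

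On scaffold 4518 (12781 to 20638, gap 174 bases) the left gene rose from 127.8 and 84.6 CPM at 0 h to 570.1 and 441.2 CPM at 48 h. The right gene had 116 and 204 counts at 0 h and no count in any library of 36, 40 or 48 h of dehydration or of 0 and 1 h of rehydration. Against a floor of 3 counts per library, it was at least 30.0-fold lower at 48 h. At 48 h of rehydration it had 11 counts.

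The test of the ratio between partners found more change late than early. At 24 h the left to right ratio had changed in 41 pairs (2.85%), against 3.34% of all 6588 neighbouring pairs tested. At 48 h it had changed in 444 pairs (30.9%), against 26.9% of all neighbouring pairs. The share at 48 h was 29.4% of convergent and 24.4% of tandem pairs under 1000 bases apart. The median absolute log2 change of the ratio at 48 h was smaller in divergent pairs under 1000 bases apart, at 1.36. It was 1.61 in convergent pairs, 1.5 in tandem pairs and 1.88 in divergent pairs 1000 to 9999 bases apart. These differences between classes were not tested. Of the 444 pairs, 61 had partners called in opposite directions, 313 had 1 partner called, 47 had both partners called the same way and 23 had neither called. The ratio within a library does not depend on library scaling. At 24 h leaving out 0 h replicate 1 gave 13 pairs, and the fits without 24 h replicates 1, 2 and 3 gave 13, 18 and 11. Batch 1 alone gave 2 pairs at 24 h and 228 at 48 h, and with the omitted library included there were 3 and 176. The fit of the compared groups alone gave 0 at both times, with 141 and 299 at an unadjusted p under 0.05 (edgeR), and limma on all groups gave 43 and 486.

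The largest fitted ratio changes at 48 h rested on partners at or near no counts. On scaffold 2391 (184464 to 186541, gap 535 bases) the right gene had no count in the 4 libraries of 0 and 1 h of dehydration and 110 and 88 counts at 48 h, at least 57.3-fold higher than 0 h against the same floor. On scaffold 151 (263611 to 267487, gap 643 bases) the right gene had 0 and 1 counts at 0 h and 154 and 250 at 48 h. It varied widely within groups, with 3036, 10062 and 1269 counts at 24 h and 0 and 243 counts at 0 h of rehydration, and it reached 40017 counts in the single library at 24 h of rehydration.

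After 3 h of rewetting, 415 member genes (14.4%) were higher and 360 (12.5%) lower than at 0 h of rehydration, against 9.84% and 9.04% of all tested genes. In convergent pairs under 1000 bases apart 13.1% of genes were higher and 12.9% lower, and in tandem pairs 11.8% and 11.0%. These differences in share were not tested. Both partners rose in 38 divergent pairs and fell in 29, and 30 moved in opposite directions. Of the 97 pairs with both partners called, 69.1% thus moved the same way. That share was 73.7% of 19 divergent pairs 1000 to 9999 bases apart, 52.9% of 68 convergent and 72.7% of 150 tandem pairs, and 54.5% of 378 pairs 10 places apart. The counts rest on every library of the comparison. Without 0 h replicate 1, 197 member genes were higher and 226 lower, without 0 h replicate 2 the numbers were 286 and 210, and the fits that omit 3 h replicate 1 or 2 gave 237 with 170 and 235 with 185. Pairs in opposite directions numbered 10 when 0 h replicate 1 was left out and 6 when any of the other libraries was. Of the member calls 53.5% were rises, and 39.6% with upper quartile scaling, which gave 327 rises and 498 falls. Pairs called together numbered 18 and 37 without 0 h replicates 1 and 2 and 22 and 26 without 3 h replicates 1 and 2, in place of 67. Batch 1 alone gave 9, with a single library in each group, and with the omitted library included 1 pair was called together. The median log2 fold change was 0.20 for the member genes and 0.08 for all tested genes, and 0.01 and -0.10 with upper quartile scaling.

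On scaffold 77887 (814823 to 824429, gap 296 bases) both partners rose at 3 h. The left gene had 1.58 and 1.73 CPM at 0 h of rehydration and 8.96 and 8.37 CPM at 3 h, and the right gene 95.9 and 129.4 CPM and 543 and 508.6 CPM. The groups were far apart for both partners, and both calls were kept without any of the 4 libraries. At 48 h of drying the left gene was below 0 h (log2 fold change -2.07 ± 0.51, SE, adjusted p = 0.00285), and the right gene passed in the other direction (0.80 ± 0.29, SE, adjusted p = 0.0338, edgeR). Without 0 h replicate 2 or 48 h replicate 1 the right gene's call was lost, as it was with the replicate number as a block. Both calls at 48 h were lost in batch 1 alone, with the omitted library and in the fit of the compared groups alone.

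On scaffold 437 (254655 to 261618, gap 76 bases) the left gene went from 1.29 and 1.73 CPM to 6.30 and 7.56 CPM at 3 h, and the right gene from 13.0 and 13.5 CPM to 88.5 and 62.5 CPM. On scaffold 421 (176914 to 181730, gap 378 bases) the left gene went from 2.59 and 7.30 CPM to 22.0 and 25.8 CPM, and the right gene from 20.3 and 16.9 CPM to 65.2 and 94.3 CPM. In these 2 pairs every 3 h library lay above every 0 h library for both partners. The left gene on scaffold 437 lost its call when either 0 h library was left out, and also without 3 h replicate 2. The left gene on scaffold 421 lost its call without 0 h replicate 1.

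Among pairs that fell at 3 h, scaffold 1881 (25619 to 36350, gap 98 bases) had a left gene at 30.4 and 31.8 CPM at 0 h of rehydration and 11.51 and 12.08 CPM at 3 h, and a right gene at 769 and 737.3 CPM and 273.9 and 221.9 CPM. Both partners had risen during drying, the left gene from 7.25 and 7.15 CPM at 0 h to 30.7 and 25.7 CPM at 48 h and the right gene from 60.8 and 59.1 CPM to 953.5 and 600.7 CPM. The left gene's call at 48 h was lost with the omitted library and in the fit of the compared groups alone. On scaffold 1006 (111911 to 113475, gap 327 bases) both partners fell at 3 h, from 39.9 ± 11.8 to 14.3 ± 8.19 CPM and from 66.5 ± 26.3 to 21.1 ± 14.8 CPM (SD, n = 2), and both calls were lost without 3 h replicate 1. The pair on scaffold 251, which had risen by 48 h, fell to 6.30 and 6.11 CPM for the left gene and 2.76 and 1.84 CPM for the right. The right gene's call was lost whichever of the 4 libraries was left out, and the left gene's without 0 h replicate 2 or either 3 h library. With the omitted library in the fit, no call of the 6 pairs described for 3 h of rewetting was kept.

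The comparison of 48 h with 0 h of drying and that of 3 h with 0 h of rewetting share no library. Both come from the same fit, with a common estimate of each gene's spread and a common batch term, so their calls are not independent. Of the 76 pairs in which both partners were higher at 48 h, 16 had both partners lower at 3 h of rehydration and none had both higher. Of the 104 pairs in which both were lower at 48 h, 11 had both higher at 3 h and none had both lower. Of the 61 pairs called in opposite directions at 48 h, 5 were again called in opposite directions at 3 h, beside 11 of 55 convergent and 10 of 107 tandem pairs. Both partners were lower at 3 h in 4 of the 36 convergent and 28 of the 127 tandem pairs that were higher at 48 h, and higher in 7 of the 64 and 21 of the 177 that were lower. Among convergent and tandem pairs higher at 48 h, none had both partners higher at 3 h. Among those lower at 48 h, 0 convergent pairs and 1 tandem pair had both lower at 3 h. By gene, 45.5% of the 479 member genes up at 48 h were down at 3 h of rehydration, beside 37.1% of the 2683 tested genes up at 48 h, and 34.2% of the 670 member genes down at 48 h were up at 3 h, beside 29.2% of 3233.

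The comparison of 40 h with 24 h shares no library with that of 48 h with 0 h either, but it comes from the same fit, so these calls are not independent. Of the 76 pairs higher at 48 h, 37 had both partners higher at 40 h than at 24 h, and of the 104 pairs lower at 48 h, 21 had both lower. Of the 61 opposite pairs, 19 were opposite between 24 and 40 h. For convergent pairs these counts were 10 of 36, 6 of 64 and 13 of 55, and for tandem pairs 38 of 127, 26 of 177 and 26 of 107. By gene, 64.1% of the member genes up at 48 h were also up between 24 and 40 h, beside 54.1% of all tested genes up at 48 h, and 42.7% of those down were also down, beside 35.8%. No divergent pair called together at 48 h was called together in the other direction between 24 and 40 h, and no convergent or tandem pair was either. By gene, 0.261% of all tested genes up at 48 h were down between 24 and 40 h. Of those down at 48 h, 0.155% were up.

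The pairs with the highest and lowest correlations, among those in which both partners averaged at least 5 CPM, were chosen for that value, which is a description. The highest, 0.967, was on scaffold 3918 (19135 to 26978, gap 279 bases). Its left gene had 18.9 and 12.4 CPM at 0 h, 22.1 CPM at 32 h, 198.6 CPM at 36 h, 125.2 and 115.1 CPM at 48 h, and 45.4 and 47.5 CPM at 3 h of rehydration. Its right gene had 56.4 and 60.2 CPM, 68.8 CPM, 222.6 CPM, 248.3 and 223 CPM, and 99.9 and 107.8 CPM at the same times. Both stepped up between the single 32 h library and the single 36 h library and came down by 3 h of rewetting.

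The next was the pair on scaffold 580, with a correlation of 0.965, described above for its fall at 24 h. Its partners kept a near constant ratio at 24 h and 48 h, with log2 changes of 0.02 ± 0.17 (SE, adjusted p = 0.983) and 0.03 ± 0.19 (SE, adjusted p = 0.941). Next came scaffold 261 (322757 to 326277, gap 255 bases), with a correlation of 0.947. Its left gene had 1410 and 1754 CPM at 0 h and 2645 and 2486 CPM at 0 h of rehydration, and its right gene 1293 and 1661 CPM and 2587 and 2300 CPM.

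The lowest correlation, -0.883, was on scaffold 1299 (648782 to 652548, gap 117 bases). The left gene went from 179.4 and 166 CPM at 0 h to 59.7 and 53.1 CPM at 48 h and 171.2 CPM at 48 h of rehydration. The right gene went from 9.45 and 10.8 CPM to 39.8 and 43.9 CPM and back to 10.9 CPM. The partners moved in opposite directions over the course, and within dehydration from 0 to 32 h alone their correlation was -0.04. The pair on scaffold 4518 described above had -0.849, but its right gene averaged 0.909 CPM. The next within the limit, on scaffolds 145 (711437 to 725710, gap 868 bases) and 348 (107851 to 115509, gap 293 bases), had correlations of -0.815 and -0.796. On scaffold 145 the left gene had 57.5 and 45.3 CPM at 0 h and 118.9 and 90.0 CPM at 48 h, and the right gene 36.8 and 17.9 CPM and 6.25 and 5.99 CPM. By 48 h of rehydration they were back at 40.6 and 18.8 CPM. On scaffold 348 the left gene had 25.9 and 24.2 CPM at 0 h and 5.66 and 5.81 CPM at 48 h, and the right gene 16.0 and 18.3 CPM and 204.4 and 131.4 CPM. The right gene was still at 140.1 and 137.4 CPM at 3 h of rehydration, when the left gene had risen to 11.6 and 14.8 CPM.

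**Figure D5:**
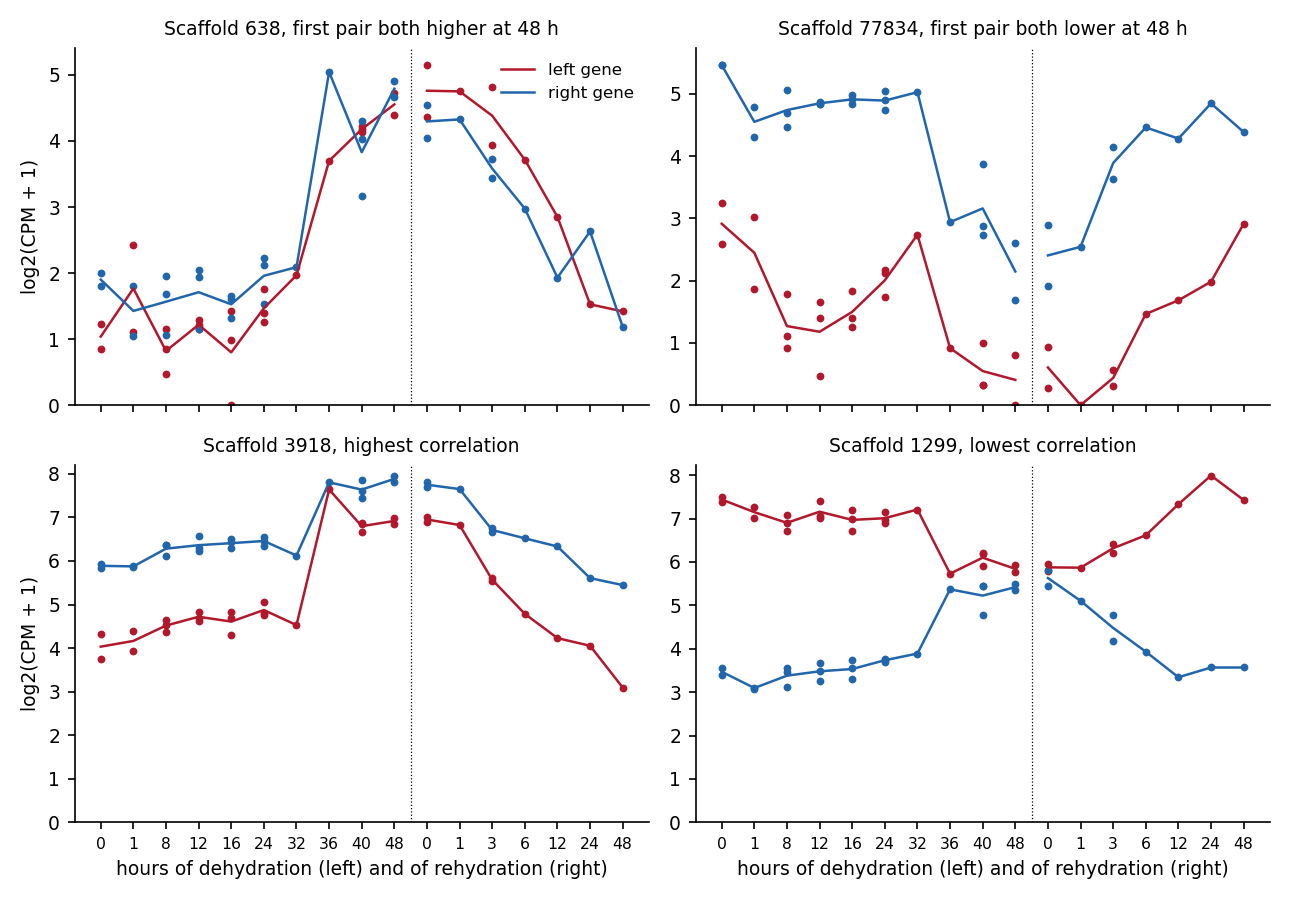
Log2(CPM + 1) of the left gene (red) and the right gene (blue) in each of 32 libraries (points) with lines through the time means, over hours of dehydration and then of rehydration on an axis of ordered times, for 4 pairs. The partners on scaffolds 638 and 3918 rise together late in drying, those on scaffold 77834 fall together, and those on scaffold 1299 move in opposite directions.

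The 3 pairs that lay closest differed in how far their partners followed each other. On scaffolds 3188 (19304 to 25212) and 328 (151386 to 156002) the gene models touched. On scaffold 3188 both genes were near no expression, with 0 to 39 counts for the left gene and 0 to 65 for the right in the 32 libraries and a correlation of 0.646. On scaffold 328 the left gene averaged 344.7 CPM and the right gene 0.431 CPM over the 32 libraries, with a correlation of 0.385. On scaffold 1357 (120642 to 122990, gap 1 base) the left gene had 12.9 and 15.7 CPM at 0 h and 10.4 and 2.41 CPM at 48 h, and the right gene 57.2 and 78.9 CPM and 226.5 and 142.5 CPM. The correlation of its partners was 0.023.

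The pairs with both partners most abundant were on scaffolds 1265, 261 and 580. On scaffold 1265 (105141 to 111951, gap 56 bases) the left gene averaged 1561 CPM and the right gene 1824 CPM, with a correlation of 0.545. Its right gene rose between 24 h (1430, 1674 and 1471 CPM) and 40 h (2515, 2486 and 2709 CPM) of drying, with a log2 fold change of 0.75 ± 0.15 (SE, adjusted p = 0.000937), while the left gene went from 1639, 1388 and 1426 CPM to 2126, 1650 and 1590 CPM and did not pass (0.27 ± 0.16, SE, adjusted p = 0.27, edgeR).

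The 243 genes whose partner did not pass the filter on low counts were also tested. At 24 h 9 of them (3.7%) rose and 7 (2.88%) fell, beside 4.59% and 2.93% of all tested genes. At 48 h the counts were 27 (11.1%) and 46 (18.9%), beside 15.1% and 18.2%. Between 24 and 40 h there were 18 rises (7.41%) and 39 falls (16.0%), beside 10.2% and 8.76%, and at 3 h of rehydration 32 rises (13.2%) and 22 falls (9.05%), beside 9.84% and 9.04%.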

How the data were processed

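Polyadenylated RNA of whole larvae was prepared with the TruSeq RNA version 2 kit, per the labels' protocols, and reads were aligned with TopHat2 (version not given), per the submitters' processing notes. The build, the counting program and whether strand was used are not given in the sources used here. Deposited by the authors were a table of read counts for 28415 genes, whole numbers without normalization, and the gene models. Groups and batches were read from the labels, and 0 columns of the count table belonged to no sample. Total counts of 15015674 to 34179203 per library set the counting error, and intervals for replicate spread are given as SD or SE.

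The gene pairs were built from the gene models by the rule stated in the report, where consecutive means consecutive among all gene models. Genes that reached 1 CPM in 2 or more libraries entered the test, made with edgeR 4.0.16 (R 4.3.3): TMM scaling, a robust quasi-likelihood fit over 32 libraries with a coefficient per group and batch, and Benjamini-Hochberg adjustment over 17789 genes, called at an adjusted p under 0.05. SEs were derived from the quasi-likelihood F statistic. The ratio between partners was tested in an edgeR fit of both partners' counts with a coefficient per library, adjusted over 6588 neighbouring pairs. Correlations used log2 CPM with a prior count of 2. The floor for a group at 0 was 3 counts per library. Both tests were checked on simulated data with planted changes. Those data had the same spread for all genes and no batch or composition differences, so they do not bear on how the calls depend on the libraries. Replicates differed well beyond sampling noise (a chi-square per gene of 37.72 or more in every replicate pair, over genes with at least 20 counts), so none was merged.

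Up to 3 pairs were named per rule: the largest joint rises and falls in each comparison other than 40 h against 24 h, the largest opposite and ratio changes at 48 h (all averaging 5 CPM or more in the higher group), the highest and lowest correlations (mean CPM of at least 5), the shortest gaps and the highest levels. The members and lists were chosen with earlier results of these data known. Alternatives were RLE and upper quartile scaling, DESeq2 1.42.0, limma 3.58.1 for the ratio, other count filters, batch and replicate terms, other sets of libraries, each library left out in turn, and other readings of the neighbour rule. Pairs free of overlap with another gene model were added after seeing the data. Of the gene IDs, 0 matched the RefSeq gene table of assembly Pv_5.2, so partners carry no names, and no genome of the files' build was used, so no sequence is shown.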

Additional observations from a re-analysis of the deposited data

How the results depend on the processing

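The counts of called pairs depended on which libraries entered the fit. With the omitted library included, pairs called in the same direction numbered 1 at 24 h, 39 at 48 h, 3 between 24 and 40 h and 1 at 3 h of rehydration (11, 180, 87 and 67 as reported), opposite pairs at 48 h 8 (61), and ratio changes 3 at 24 h and 176 at 48 h (41 and 444). That library is 1 of the 2 at 1 h of rehydration, a group in none of these comparisons. In batch 1 alone the same counts were 2, 80 and 9 at 24 h, 48 h and 3 h, 34 opposite, and 2 and 228 ratio changes. In the fit of only the groups compared, edgeR called 0 pairs in the same direction at 24 h (27 at an unadjusted p under 0.05), 5 at 48 h with 2 opposite, and 0 ratio changes at 24 h and 48 h (141 and 299 at an unadjusted p under 0.05). In fits of all groups, DESeq2 called 13 pairs in the same direction at 24 h, where 41 had an unadjusted p under 0.05 in edgeR, and limma called 43 and 486 ratio changes. Without a count filter 6 pairs were called at 24 h, and DESeq2 called 112 at 3 h. Restricted to the 701 pairs free of overlap with other gene models, a choice made after seeing the data that lowers counts by its construction, the same-direction counts were 6, 90, 49 and 28, opposite 27, and ratio changes 24 and 212. Leaving out 1 library gave 2 to 5, 110 to 167, 46 to 104 and 18 to 37 pairs in the same direction, 37 to 54 opposite pairs, and 11 to 45 and 313 to 460 ratio changes. Where that left a single library in a group, it was assumed to vary like the other groups.

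The median correlation of 0.201 was 0.173 by Spearman, 0.164 without a count filter, 0.234 in batch 2, 0.233 over time means, 0.252 with the omitted library, 0.072, 0.13 and 0.145 in the 3 stretches of the course, 0.12 over replicate deviations, and 0.183 to 0.211 with 1 library left out. With the batch 2 library titled 40 h counted at 48 h, 127 pairs were called in the same direction at 48 h. Smaller counts that moved by over 1.5 times were the opposite pairs at 24 h (3, and 8 by DESeq2), between 24 and 40 h (23, and 38 by DESeq2) and at 3 h (30, and 47 by DESeq2), and member genes lower at 24 h (54, 84 with RLE scaling and 122 by DESeq2). In the fit of only the groups compared, 49 member genes rose and 16 fell at 24 h, and 102 rose and 74 fell at 48 h. With the omitted library 19 rose and 10 fell at 24 h, 231 and 210 did at 48 h, 78 and 31 between 24 and 40 h, and 32 and 3 after 3 h. Batch 1 alone gave 71 rises with 23 falls at 24 h, 172 with 72 at 3 h, and 398 with 389 at 48 h. The balance of member genes at 48 h, 479 rises and 670 falls as reported, thus turned in these 3 fits, and at 3 h it went from 415 rises and 360 falls to 327 and 498 with upper quartile scaling. The causes were not tested.

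The labels do not say what a replicate number stands for. Deviations of same-numbered libraries correlated at 0.075 to 0.16, positive in all 11 pairs of groups and over 0.1 in 8 of them, so not every value passed 0.1 and the number was not taken to pair the libraries. With the replicate number as a block, pairs called in the same direction numbered 14, 177, 94 and 89, ratio changes 80 and 432, opposite pairs at 24 h 7, and the median correlation was 0.199. The replicate block thus moved the ratio changes at 24 h by over 1.5 times. At these depths, partners at or near 0 counts allow only a bound on the fold.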
